A study of Mus musculus with 11 samples.

Results

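The motile cilium and axoneme genes were followed in 11 mouse RNA sequencing libraries from the embryonic cortex, in a study of L3mbtl3, a protein that interacts with Polycomb repressive complex 1. Members were picked by gene symbol: the dynein heavy, light and intermediate chain families, the dynein assembly factors, the Cfap, Rsph, Tekt and Drc families, and 10 further genes given by name (Foxj1, Ak7, Ccdc39, Ccdc40, Ccdc180, Spag6l, Spag16, Spag17, Hydin and Mns1). The rule found 81 of the 46078 genes in the count tables, 80 of them protein coding and 1, Dnah2os, an antisense RNA. The symbols alone decide membership, but the set was proposed with its levels across all 5 sample groups in view, so the counts below describe the set and are not independent evidence about it.

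All embryos were of the outbred CD-1 strain. At E15.5 there were 3 libraries of GFP+ cells sorted by flow cytometry from brains electroporated in utero at E12.5 with the GFP plasmid pCIG2 (GFP controls), and 3 from wild-type brains that received pCIG2-L3mbtl3 instead (gain of L3mbtl3). At E12.5 there were 5 libraries of dissected dorsal telencephalon, the future cortex with its medial edge: 2 from L3mbtl3 heterozygotes, 1 from the wild type and 2 labelled L3mbtl3 knockout. The heterozygotes and the wild type together formed the study's 3 E12.5 controls. Electroporation reaches a patch of cells along the ventricle, and the sorted cells hold the GFP+ progeny of that patch, whereas the dissected tissue holds every cell of the region. CD15+ samples named in the design were not analysed here.

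A motile cilium beats because dynein motors on its outer microtubule doublets walk along the neighbouring doublets. Radial spokes and a central pair of microtubules time that walking, the nexin-dynein regulatory complex limits it, and tektins and other inner microtubule proteins stiffen the doublets. Outer and inner arm dyneins are put together in the cytoplasm by dedicated assembly factors, and the forkhead factor Foxj1 together with RFX factors switches the programme on. In the brain the programme is best known from ependymal cells and the choroid plexus epithelium, while dividing cortical progenitors carry an immotile primary cilium that lacks these motors.

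Total counts ran from 16527551 to 26658718 per library, so that a count of 3 corresponded to 0.113 to 0.182 on the counts-per-million scale (CPM). L3mbtl3 itself ran from 824 to 1411 CPM with the L3mbtl3 plasmid and from 46.4 to 52.9 CPM with GFP alone. At E12.5 it had 61.5, 64.1 and 64.7 CPM in the controls and 74.5 and 77.2 CPM in the pair labelled knockout. It was called higher there, against the direction of the label (log2 0.27, SE 0.05, edgeR adjusted p = 0.0128). Without knockout 2 or with a term for embryo sex, which both leave only knockout 1, its value was 0.23 and it was not called. Counts over a whole gene do not test a deletion of part of it, so those 2 libraries are named by their label throughout. Xist and Y-linked counts marked knockout 2 as female and knockout 1 as male, while all 3 E12.5 controls and all 3 GFP controls were male. At E12.5 a term for embryo sex thus sets only knockout 1 against the controls, as leaving out knockout 2 does. Of the 3 libraries with the L3mbtl3 plasmid, 2 were female and 1 was male. There the term sets only that 1 male library against the GFP controls. Whether each replicate is an embryo of its own is not stated in the labels, and a p-value therefore covers only the spread between these libraries.

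A sequence feature that the rule did not use stood near the start sites of 36 members. RFX factors bind the X-box, searched for here as GTNNCC followed after 0 to 3 bases by NGNNAC, on both strands, in 300 bases of RefSeq promoter (GRCm38.p6; 250 before and 50 after each start). It was present for these 36 of the 67 members with a promoter in that table (53.7%), and for 14.9% of all 27025 genes there. Among members lower in the libraries labelled knockout the share was 16 of 23 (69.6%), and among members tested and not called it was 17 of 36 (47.2%). A stricter form, GTTGCC and GGCAAC with 0 to 3 bases between, was found in 1 member, Cfap298, and in 0.189% of all genes. The forkhead letters GTAAACA stood in 5 members (7.46%) and in 4.05% of all genes. The first 6 sequences below belong to members that were lower in the libraries labelled knockout, and the last 3 to members that were not called there. Capitals mark the X-box match, which may lie on either strand. Every sequence reads in the direction of its gene and ends before a RefSeq start site. That start can differ from the gene start in the annotation used for the counts. The Cfap126 and Cfap298 sequences, for example, lie wholly or partly inside the gene as counted.
Dnah9 (outer arm heavy chain), chr11:66168601-66168653, minus strand: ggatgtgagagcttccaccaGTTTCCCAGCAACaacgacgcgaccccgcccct
Cfap206 (radial spoke), chr4:34730207-34730249, minus strand: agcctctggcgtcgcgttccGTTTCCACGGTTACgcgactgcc
Hydin (central pair), chr8:110266936-110266976, plus strand: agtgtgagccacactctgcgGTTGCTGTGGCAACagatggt
Cfap46 (central pair), chr7:139683816-139683851, minus strand: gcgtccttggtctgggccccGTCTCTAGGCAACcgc
Cfap126 (inner microtubule protein), chr1:171122943-171122996, plus strand: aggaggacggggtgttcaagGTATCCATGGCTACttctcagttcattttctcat
Cfap44 (tether of the inner arm), chr16:44394752-44394798, plus strand: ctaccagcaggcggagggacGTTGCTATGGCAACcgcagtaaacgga
Dnaic2 (outer arm intermediate chain), chr11:114727366-114727418, plus strand: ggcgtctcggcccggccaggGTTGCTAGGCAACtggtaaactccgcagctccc
Tekt2 (tektin), chr4:126325689-126325737, minus strand: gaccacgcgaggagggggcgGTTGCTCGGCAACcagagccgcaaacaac
Cfap298 (assembly factor), chr16:90934884-90934938, minus strand: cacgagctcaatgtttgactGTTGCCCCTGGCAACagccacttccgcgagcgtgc
Matches of this kind stood both in members that fell and in members that did not, such as Tekt2 and Dnaic2. A match is a description of letters and not a bound site.

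The members were low on the whole and much better detected in E12.5 tissue than in sorted E15.5 cells. At least 3 counts were present for 45 to 55 members in each E15.5 library and for 75 to 77 in each E12.5 library. Summed over all 81 members the level was 381 to 420 CPM with GFP alone and 394 to 418 CPM with L3mbtl3. The sum was 864 to 887 CPM in the E12.5 controls, and 710 and 716 CPM in the libraries labelled knockout. Per kilobase of exon, the E12.5 controls had a median of 0.837 RPKM (CPM divided by exon length in kilobases) over the members, and 38 of the 81 reached 1 RPKM, against a median of 0.0653 RPKM and 18 members in the GFP controls. The highest member on that scale in each group was Cfap20, a protein of the inner doublet junction, with 46.4 RPKM in the E12.5 controls and 38.4 RPKM in the GFP controls. Foxj1 had 14.7 and 1.77 RPKM in the same groups, the radial spoke head gene Rsph1 had 10.01 and 0.161 RPKM, and Dnah6, the highest heavy chain over all libraries, had 1.89 and 0.0338 RPKM. Cfap97d1 had no count in any library and Dnah14 fewer than 3 in each.

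**Figure D1:**
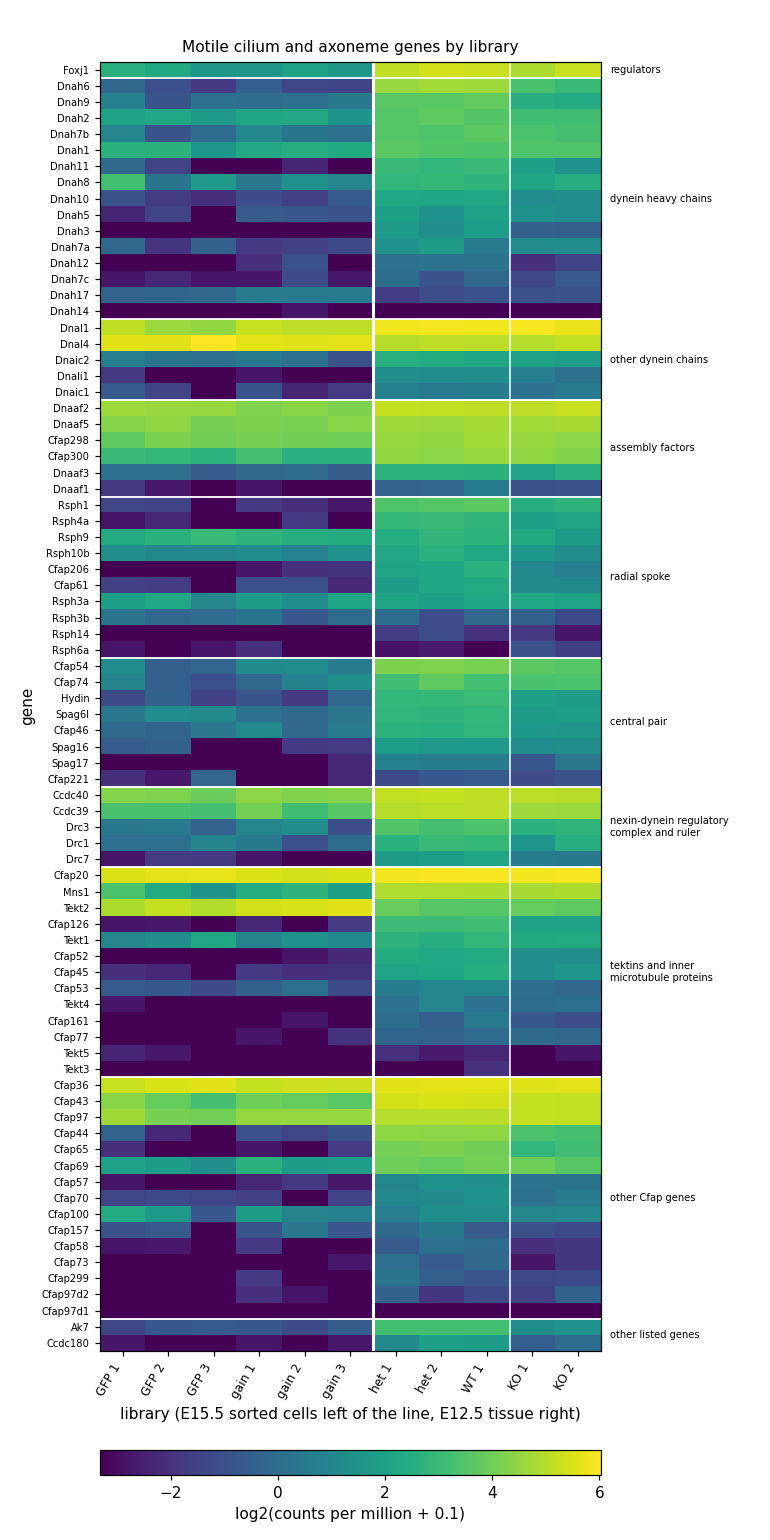
Level of each of the 80 protein coding members (rows, grouped by axoneme part) in each of the 11 libraries (columns), as log2(CPM + 0.1). Most rows are dark in the 6 E15.5 libraries and bright in the 5 E12.5 libraries, except for an evenly bright group that includes Cfap20, Cfap36, Dnal1 and Dnal4.

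Between the 3 E12.5 controls and the 3 GFP controls, most members were higher in the tissue. Age, sorting and electroporation all differ between these groups and cannot be told apart, and in bulk RNA more cells of a type and more RNA per cell cannot be told apart either. By edgeR's quasi-likelihood test, 55 of the 70 members that passed the filter on low counts were called higher at an adjusted p under 0.05, where 31.3% of all 15968 genes tested were. Only 38 members passed the same filter among the sorted E15.5 libraries of the gain comparison. Many of the 70 thus entered through their tissue counts, and for these a higher level in tissue was largely set by the filter. Called lower were 3 members (31.1% of all genes, with 62.3% called in either direction), and 12 were not called. The median log2 fold change was 2.72, or 2.57 with the 8 tested members at 0 in the GFP controls set to their lower bound.

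Foxj1 stood at 35.3, 41.9 and 38.3 CPM in the tissue and at 5.94, 5.04 and 2.98 CPM in the sorted GFP controls. The 2 groups did not overlap, and the log2 difference was 2.79 (SE 0.23, edgeR adjusted p = 0.000130). Structural genes were further apart. Dnah3, an inner arm heavy chain, had no count in any E15.5 library and 2.36 to 3.61 CPM in the E12.5 controls, at least 20.3-fold higher than a floor of 3 counts per GFP library. On the same floor Cfap52, an inner microtubule protein, was at least 33.5-fold higher, Cfap206 at least 32.8-fold, Spag17 of the central pair at least 9.93-fold and Dnah12 at least 7.204-fold. Altogether 15 members had no count in any GFP control, and 2 of these, Cfap97d1 and Dnah14, had none in the E12.5 controls either.

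Lower in the tissue were a tektin, a light chain and a heavy chain. Tekt2, a tektin, was at 14.4, 12.1 and 11.6 CPM in the tissue and 29.1, 36.3 and 30.8 CPM in sorted cells, a log2 difference of -1.60 (SE 0.15, edgeR adjusted p = 0.000191). Dnal4, a dynein light chain, was at 32.6, 33.9 and 33.4 CPM against 48.4, 49.0 and 65.0 CPM, a difference of -0.98 (SE 0.16, adjusted p = 0.00182). Dnah17, a heavy chain best known from sperm, differed by -1.40 (SE 0.39, adjusted p = 0.0174) at 0.225 to 0.769 CPM in these 6 libraries. Cfap20, Cfap36, Dnaaf5, Rsph3a and Rsph9 were among the 12 not called, with log2 differences between -0.31 and 0.11.

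Genes that start or carry out multiciliation differed in the same direction between these groups. Gmnc, which acts at the top of that cascade, had 1058, 657 and 742 counts in the tissue beside 5, 1 and 1 in sorted cells. Mcidas, its relative, had 248, 185 and 204 counts beside 0, 3 and 1. For Deup1, a scaffold of centriole amplification, the counts were 272, 168 and 212 beside 4, 1 and 1. All 3 were called higher (edgeR adjusted p = 2.5e-05, 9.95e-05 and 4.41e-05). Markers of other cells also differed between these groups. Higher in tissue, as the members were, the 20 choroid plexus genes summed to 16.8 to 31.6 CPM in the GFP controls, with Prlr, Kcnj13 and Tmem72 at 0, and to 722 to 816 CPM in the E12.5 controls. The 12 meningeal and mesenchymal genes summed to 12.6 to 68.2 CPM against 1849 to 2055 CPM. Lower in tissue, the 12 neuronal genes summed to 8857 to 12154 CPM against 2982 to 3352 CPM. The GFP controls also differed among themselves. In GFP controls 1, 2 and 3 the apical progenitor genes summed to 2069, 1413 and 637 CPM. The ventral telencephalon and GABAergic genes summed to 917, 253 and 19.0 CPM. The part of these lists in the result was not tested.

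In E12.5 tissue, 31 of the 72 members that passed the filter on low counts were lower in the 2 libraries labelled knockout than in the 3 controls, and none was higher, at an adjusted p under 0.05 by edgeR. Of all 16361 genes tested, 3.78% were called lower and 3.63% higher, 7.41% in all. DESeq2 gave 61 members an adjusted p and called 23 lower and 0 higher, beside 456 lower and 474 higher of 15153 genes. By edgeR 1 member, Cfap97, had an unadjusted p under 0.05 above 0. The 31 fell by a median of 1.08 on the log2 scale, with log2 fold changes from -2.68 to -0.24, and they came from 16 chromosomes with at most 4 on any of them. Among them Cfap54 and Rsph4a lie on chromosome 10, which also holds L3mbtl3. The part of that location in their fall was not tested. Over all 72 tested members the median was -0.62, with 63 below 0, beside a median of -0.00 over all genes. Both libraries labelled knockout lay below all 3 controls for 49 of the 72 (68.1%), a pattern seen for 20.5% of all genes, and above all 3 for 1 member, Cfap97, against 18.1% of all genes. Summed over the 31, which were chosen for their fall in these libraries, the level was 294, 307 and 309 CPM in the controls. It was 171 and 169 CPM in the libraries labelled knockout. Summed over the 41 not called it was 569 to 578 CPM and 538 and 546 CPM. The shares of members called by axoneme part are described in turn below.

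**Figure D2:**
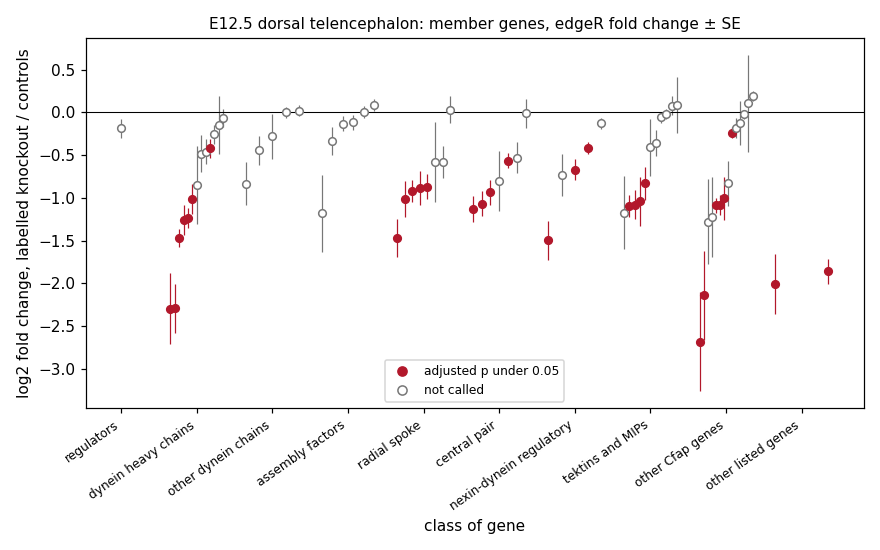
Log2 fold change between the 2 libraries labelled knockout and the 3 E12.5 controls for each of the 72 tested members, with bars of 1 standard error, grouped by axoneme part; filled points have an edgeR adjusted p under 0.05. All filled points lie below 0, and none belongs to the regulators, the assembly factors or the other dynein chains.

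Foxj1 was not among the 31. It stood at 35.3 and 41.9 CPM in the heterozygotes, 38.3 CPM in the wild type and 29.4 and 37.6 CPM in the libraries labelled knockout, so the groups overlapped. The log2 fold change was -0.19 (SE 0.11, edgeR adjusted p = 0.394). The library labelled knockout 1 was the low one. Without the library labelled knockout 2 the value was -0.39. With a term for embryo sex, which also leaves only knockout 1 for the contrast, it was -0.38. Both passed the threshold, but on that 1 low library, and without knockout 1 the value was -0.01.

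Dynein heavy chains, the motors themselves, were called lower in 7 of 13 tested, and DESeq2 called 5 of the 11 it gave an adjusted p. Dnah6 (chr6:73017606-73221651), an inner arm chain, was at 23.7, 26.1 and 25.4 CPM in the controls and at 10.01 and 8.004 CPM in the libraries labelled knockout. Its log2 fold change was -1.47 (SE 0.10, edgeR adjusted p = 1.51e-05), the smallest adjusted p among the members. Dnah9 (chr11:65831282-66168551), an outer arm chain of the distal cilium, was at 12.2, 12.4 and 13.5 CPM against 5.60 and 5.12 CPM (log2 -1.24, SE 0.12, adjusted p = 0.000144). Dnah11, its outer arm counterpart, was at 8.06, 6.96 and 7.83 CPM against 3.73 and 2.65 CPM (log2 -1.26, SE 0.17, adjusted p = 0.00146). In all 3 genes the libraries of one kind lay close together and far from the other kind.

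The largest falls among heavy chains were in low genes. Dnah3 was at 3.19, 2.36 and 3.61 CPM against 0.638 and 0.605 CPM (log2 -2.29, SE 0.29, adjusted p = 0.000855). Dnah12 was at 1.05, 1.09 and 1.119 CPM against 0.147 and 0.279 CPM (log2 -2.30, SE 0.42, adjusted p = 0.00701). Dnah3 and Dnah12 are inner arm chains, and DESeq2 gave no adjusted p for Dnah12. Dnah10 (log2 -1.01, adjusted p = 0.00510) and Dnah2 (log2 -0.42, adjusted p = 0.0390) completed the 7, and Dnah2 lost its call whenever any of the 5 libraries was left out. Not called were Dnah1 (-0.06), Dnah5 (-0.48), Dnah7a (-0.15), Dnah7b (-0.26), Dnah7c (-0.85) and Dnah8 (-0.46). The 3 Dnah7 copies are near-identical, so reads could be split or lost among them and their values are uncertain.

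Light and intermediate chains and assembly factors within the symbol rule gave no call by edgeR or DESeq2. Of these, 2 of 5 and 1 of 6 were below 0 at an unadjusted edgeR p under 0.05. Outside the rule, the intermediate chain Wdr63 and the assembly factor Zmynd10 were called lower, as given below. Of the 5 other dynein chains, the outer arm light chain Dnal1 was at 57.1, 58.9 and 56.0 CPM against 60.6 and 53.6 CPM (log2 0.00, SE 0.06), and Dnal4 was at 32.6, 33.9 and 33.4 CPM against 31.8 and 35.5 CPM (log2 0.02, SE 0.07). The groups overlapped for both. The chains Dnali1, Dnaic2 and Dnaic1 had log2 values of -0.83, -0.44 and -0.28, with adjusted p values of 0.0661, 0.151 and 0.604. Without the library labelled knockout 1, Dnali1 was called lower (edgeR adjusted p = 0.0387), as it was with no filter (0.0348). Among the 6 assembly factors, which fold and load dyneins in the cytoplasm, the log2 values ran from -1.18 for Dnaaf1 to 0.08 for Dnaaf5, with a median of -0.13. Cfap298, the assembly factor with the highest level per kilobase, was at 23.1, 22.5 and 26.4 CPM against 23.0 and 21.1 CPM (log2 -0.12, SE 0.09, adjusted p = 0.483).

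Radial spoke genes were called lower in 5 of 8 tested. Rsph1 (chr17:31255019-31277356), of the spoke head, was at 10.9, 11.6 and 12.51 CPM in the controls and 5.60 and 6.61 CPM in the libraries labelled knockout (log2 -0.92, SE 0.13, edgeR adjusted p = 0.00155). Cfap206 (chr4:34688559-34730206), at the spoke base, was at 4.31, 4.36 and 6.15 CPM against 1.96 and 1.58 CPM (log2 -1.47, SE 0.23, adjusted p = 0.00303). The head gene Rsph4a was at 7.43, 7.99 and 6.87 CPM against 3.78 and 4.28 CPM (log2 -0.87, SE 0.15, adjusted p = 0.00482). None of these 3 overlapped between groups. Cfap61 (log2 -1.01) and Rsph10b (log2 -0.89) were also called, although Rsph10b shares exon bases with Pms2 on its strand and is uncertain. Rsph9, of the spoke head, was not called (log2 -0.57, adjusted p = 0.0906) unless the library labelled knockout 1 was left out (0.0209) or no filter was used (0.0125), and neither were the similar copies Rsph3a (0.03) and Rsph3b (-0.58).

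Central pair genes were called lower in 4 of 7 tested. Spag6l (chr16:16753016-16829456), which encodes an armadillo repeat protein of the central apparatus, was at 7.09, 6.72 and 7.12 CPM in the controls against 3.53 and 3.72 CPM (log2 -0.94, SE 0.14, adjusted p = 0.00285). Hydin, a very large central pair protein whose loss causes hydrocephalus in mice, was at 7.16, 7.38 and 8.14 CPM against 3.78 and 3.40 CPM (log2 -1.07, SE 0.15, adjusted p = 0.00157). Cfap46 was at 6.53, 6.23 and 7.07 CPM against 3.04 and 2.98 CPM (log2 -1.13, SE 0.15, adjusted p = 0.00144). In each, every library labelled knockout was below every control. Cfap54 fell less, by 0.56 on the log2 scale (adjusted p = 0.00290). Spag17 (-0.80), Spag16 (-0.53) and Cfap74 (-0.01) were not called, and Cfap74 was at 8.74, 13.3 and 9.10 CPM against 10.1 and 10.2 CPM.

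The nexin-dynein regulatory complex, with the 2 proteins that set its spacing along the doublet, was called lower in 3 of 5 genes. Drc7 (chr8:95055103-95078141) was at 3.301, 3.69 and 4.48 CPM against 1.42 and 1.26 CPM (log2 -1.50, SE 0.23, adjusted p = 0.00266), and Drc3 fell by 0.67 (adjusted p = 0.00773). The spacing proteins Ccdc39 and Ccdc40 work as a pair. Ccdc39 was at 31.2, 33.5 and 34.0 CPM against 24.9 and 24.2 CPM (log2 -0.41, SE 0.07, adjusted p = 0.00444). Ccdc40 was at 35.7, 36.8 and 34.3 CPM against 32.8 and 32.0 CPM (log2 -0.13, SE 0.06, adjusted p = 0.255); its groups did not overlap, but its difference did not pass. Drc1 was at 2.90 and 5.54 CPM in the libraries labelled knockout, both below the controls at 6.19 to 7.74 CPM, and was not called (log2 -0.73, adjusted p = 0.120). It was called lower with a replicate block (edgeR adjusted p = 0.0339) and with no filter (0.000313). It was also called lower without knockout 2 and with a term for embryo sex, which both leave only knockout 1, the lower library.

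Tektins and inner microtubule proteins were called lower in 4 of 11 tested, and DESeq2 called 2. Cfap126, an inner microtubule protein, was at 8.40, 8.41 and 8.90 CPM against 3.98 and 4.002 CPM (log2 -1.10, SE 0.13, adjusted p = 0.000675), and Cfap52 was at 5.25, 4.72 and 5.19 CPM against 2.36 and 2.42 CPM (log2 -1.08, SE 0.17, adjusted p = 0.00324). Cfap45 (log2 -0.83) and Cfap53 (log2 -1.04) were called less firmly, with adjusted p values of 0.0260 and 0.0488. The others included the members with the steadiest levels. Cfap20 was at 58.1, 60.4 and 61.3 CPM against 57.4 and 60.3 CPM (log2 -0.02, SE 0.06, adjusted p = 0.901), and Mns1 was at 29.9, 29.9 and 29.5 CPM against 27.8 and 29.0 CPM (log2 -0.06, SE 0.06). Tekt1, Tekt2 and Tekt4 had log2 values of -0.36, 0.08 and -0.41, and Cfap161 and Cfap77 of -1.17 and 0.08, none of them called.

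Among the other Cfap genes 6 of 14 were called lower, and DESeq2 called 2. Cfap44 (chr16:44394796-44482428), part of the tether that holds an inner arm dynein, was at 21.5, 20.995 and 21.6 CPM in the controls and 10.5 and 9.54 CPM in the libraries labelled knockout (log2 -1.09, SE 0.09, adjusted p = 4.16e-05). Its partner Cfap43 fell by 0.24 (adjusted p = 0.0386), lost the call whenever any of the 5 libraries was left out, and shares 37.8% of its exon bases with Itprip on its strand. Cfap65 was at 16.8, 18.2 and 15.8 CPM against 7.07 and 8.79 CPM (log2 -1.08, SE 0.12, adjusted p = 0.000330). Cfap73 (log2 -2.68, SE 0.58) and Cfap58 (log2 -2.14, SE 0.52) had wide errors, at controls of 0.545 to 0.975 CPM and 0.525 to 0.968 CPM. Cfap57 (log2 -1.01) was the sixth. Not called were Cfap36 (-0.02), which was at 49.0, 49.98 and 50.3 CPM against 47.5 and 50.02 CPM, and Cfap69, Cfap70, Cfap97, Cfap97d2, Cfap100, Cfap157 and Cfap299, between -1.28 and 0.19.

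The last 2 listed genes both fell. Ak7 (chr12:105705982-105782447), an adenylate kinase of motile cilia, was at 9.04, 9.02 and 9.15 CPM in the controls, 9.07 ± 0.0742 CPM (SD, n = 3), and at 2.36 and 2.61 CPM in the libraries labelled knockout, 2.48 ± 0.177 CPM (SD, n = 2). The gap was many times the spread within either group (log2 -1.86, SE 0.15, edgeR adjusted p = 3.59e-05). Ccdc180 was at 1.99, 3.75 and 3.46 CPM against 0.589 and 0.884 CPM (log2 -2.00, SE 0.35, adjusted p = 0.00687).

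**Figure D3:**
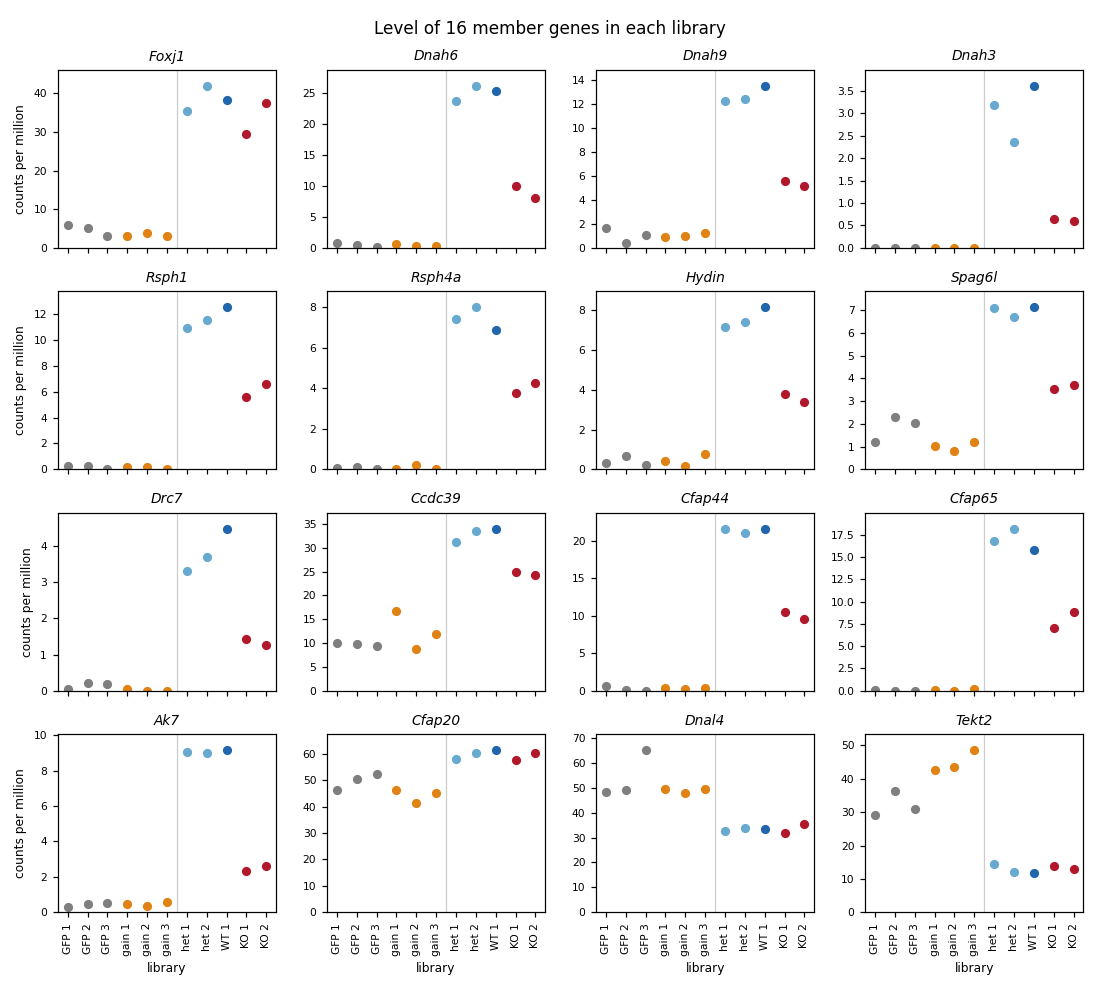
Level (CPM) of 16 members in each library: GFP controls (grey), gain of L3mbtl3 (orange), E12.5 heterozygotes (light blue) and wild type (dark blue), and libraries labelled knockout (red). Dnah6, Ak7, Cfap44 and 9 further genes show red points below all blue points, while for Cfap20 and Dnal4 they overlap.

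The 9 members left out of this test by the filter were Cfap97d1, Dnah14, Dnah17, Dnah2os, Rsph14, Rsph6a, Tekt3, Tekt5 and Cfap221, at most 0.559 CPM in any E12.5 library. Rsph6a, a paralog of Rsph4a best known from testis, stood at 0.393 and 0.233 CPM in the libraries labelled knockout and 0 to 0.0605 CPM in the controls. With no filter it was the 1 member called higher.

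Axoneme genes outside the symbol rule gave calls in 1 direction too. Of 51 such genes in the files 45 were tested, 12 were called lower and 0 higher by edgeR, with a median log2 fold change of -0.60. DESeq2 gave 40 an adjusted p and called 9 lower and 0 higher. Spata18 was at 1.76, 1.51 and 1.32 CPM in the controls against 0.196 and 0.140 CPM (log2 -3.16, SE 0.41, adjusted p = 0.00114). Lrriq1 was at 14.2, 13.3 and 14.4 CPM against 7.21 and 5.91 CPM (log2 -1.09, SE 0.12, adjusted p = 0.000316). Wdr63, an inner arm intermediate chain, was at 4.88, 5.02 and 6.20 CPM against 2.16 and 2.51 CPM (log2 -1.19), and Pifo, which encodes the cilium protein pitchfork, was at 3.41, 2.90 and 4.12 CPM against 1.18 and 1.30 CPM (log2 -1.48). The dynein assembly factor Zmynd10 was among the 12 (log2 -0.75, adjusted p = 0.0105), as was the outer arm docking gene Armc4 (log2 -1.86, adjusted p = 0.0189).

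The list of ciliogenesis regulators, which holds upstream factors and the centriole scaffold Deup1, gave 1 call among 17 tested, with a median of 0.07. Gmnc was at 39.7, 39.8 and 37.7 CPM in the controls and 38.5 and 43.1 CPM in the libraries labelled knockout (log2 0.07, SE 0.07), and Mcidas at 9.30, 11.2 and 10.4 CPM against 11.04 and 12.1 CPM (log2 0.19, SE 0.11). Groups overlapped for both. Trp73, a p53 family factor of multiciliated cells, had a log2 value of -0.01, Ccno of 0.17, Rfx2 of 0.22 and Rfx3 of -0.14 (adjusted p = 0.0702). Trp73 is also on the list of Cajal-Retzius genes, so its level in this tissue need not come from multiciliated cells. Those 10 genes summed to 520 to 614 CPM in the controls and to 534 and 516 CPM in the libraries labelled knockout. The call was Deup1, the centriole scaffold, at 10.2, 10.2 and 10.8 CPM against 6.04 and 6.84 CPM (log2 -0.68, SE 0.12, adjusted p = 0.00559).

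Genes of the primary cilium and of intraflagellar transport, which build and supply immotile and motile cilia alike, gave no call. All 35 were tested, the median log2 value was -0.02, the smallest edgeR adjusted p was 0.0977 (Tmem67, log2 -0.19), 3 had an unadjusted p under 0.05, and DESeq2 called 0. Their summed level was 1664 to 1706 CPM in the controls and 1599 and 1674 CPM in the libraries labelled knockout.

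Choroid plexus markers moved with the members. Of 20 such genes 19 were tested, 13 were called lower and 1, Msx1, higher, with a median log2 value of -0.77. Kcne2, a potassium channel subunit of that epithelium, was at 22.4, 23.8 and 26.5 CPM in the controls against 6.14 and 6.05 CPM (log2 -1.98, SE 0.11, adjusted p = 2.77e-06). Htr2c, its serotonin receptor, was at 22.5, 24.4 and 26.3 CPM against 7.75 and 8.14 CPM (log2 -1.61, adjusted p = 7.76e-06), and Ttr, which encodes transthyretin, at 393, 467 and 477 CPM against 155 and 138 CPM (log2 -1.60). Otx2 and Lmx1a, transcription factors of the choroid plexus and its surroundings, were not called, at 0.19 and 0.03. The 20 genes summed to 722 to 816 CPM in the controls and 384 and 389 CPM in the libraries labelled knockout, and none was at 0 in either group. Ventral telencephalon and GABAergic genes also moved, from sums of 69.0 to 99.7 CPM to 108 and 162 CPM, with 3 of 12 called higher and 1 lower. The part of these markers in the fall of the axoneme genes was not tested.

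**Figure D4:**
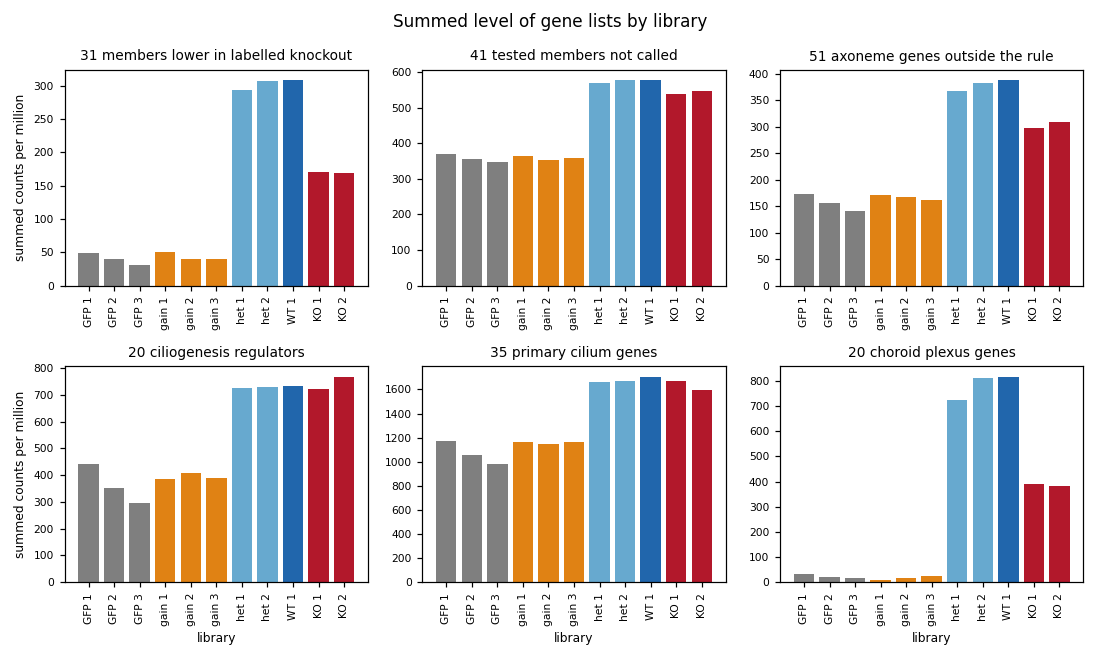
Summed level (CPM) in each library for 6 lists: the 31 members that fell, the 41 tested members not called, 51 axoneme genes outside the rule, 20 ciliogenesis regulators, 35 primary cilium genes and 20 choroid plexus genes. The first list was chosen for its fall in these same libraries, so its lower bars in the libraries labelled knockout were set by that choice. The choroid plexus list is low at E15.5, tall in the E12.5 controls and cut back in the libraries labelled knockout. The regulators and primary cilium genes are about level across the 5 E12.5 libraries.

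The falls in tissue were largest among members barely present in sorted E15.5 cells. The 24 tested members with the lowest mean in the GFP controls (0 to 0.153 CPM) included 14 that fell, and their median log2 fold change was -1.08. The next 24 (0.187 to 1.84 CPM) included 13, with a median of -0.87. Of the 24 highest (2.10 to 54.1 CPM) 4 fell, Cfap43, Ccdc39, Dnah2 and Rsph10b, with a median of -0.12 over the 24. Spearman's rho between GFP control level and log2 fold change at E12.5 was 0.667 over the 72 members and 0.000 over all 16361 genes tested. It is a description across genes, which share these libraries and are not replicates. Median levels in the E12.5 controls also differed between the 3 sets, at 2.26, 7.05 and 24.8 CPM, so a low level in sorted cells and a low level in tissue went together.

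**Figure D5:**
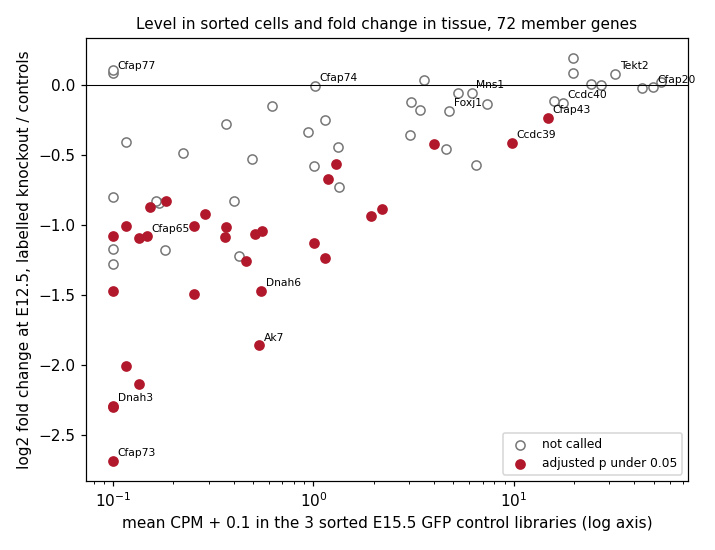
Each of the 72 tested members by its mean level in the 3 GFP control libraries (horizontal, CPM plus 0.1, log axis) and its log2 fold change between libraries labelled knockout and E12.5 controls (vertical); filled points were called lower. Members above 10 CPM in sorted cells lie near 0 on the vertical axis, and those under 1 CPM spread from about 0 down to -2.68.

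The fall at E12.5 rests on 5 libraries. Of the 31 members 22 kept their call in each of the 5 fits that left out 1 library, and all 31 stayed below 0 in each of the 12 alternatives in which they were tested. When all 11 libraries were fitted together to share 1 estimate of spread, only Ak7 was called among the members, in a fit that called 15 of 17060 genes in all.

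Raising L3mbtl3 in E15.5 cells gave no called member. Of the 81, 38 passed the filter on low counts and 43 did not, among them Dnah6, Rsph1, Cfap44 and Hydin. By edgeR 0 were called, where 0.0136% of all 14698 genes were (0.0068% higher and 0.0068% lower), 3 had an unadjusted p under 0.05, and DESeq2 called 0 with 4 under that level. The median log2 fold change was 0.01, with 19 members on each side of 0. Tekt2, the tektin that was higher in sorted cells than in tissue, came nearest, at 42.7, 43.6 and 48.5 CPM with L3mbtl3 and 29.1, 36.3 and 30.8 CPM without. Those groups did not overlap, and the log2 difference was 0.49 (SE 0.12, edgeR adjusted p = 0.468).

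Foxj1 was at 2.99, 3.97 and 3.01 CPM with L3mbtl3 and at 5.94, 5.04 and 2.98 CPM with GFP alone. These overlapped (log2 -0.47, SE 0.30, adjusted p = 0.637). Dnah17 was at 1.37, 1.39 and 1.32 CPM with L3mbtl3 and at 0.671, 0.712 and 0.769 CPM with GFP alone (log2 0.92, SE 0.33, adjusted p = 0.551). Dnaaf2, an assembly factor, was at 18.7, 20.4 and 17.8 CPM with L3mbtl3 and at 25.2, 23.9 and 23.3 CPM with GFP alone (log2 -0.34, SE 0.12, adjusted p = 0.551). Neither pair of groups overlapped, and neither difference passed. Both genes, like Tekt2, were named for a small p, a choice that favours groups that do not overlap. The central pair gene Spag6l was at 1.03, 0.814 and 1.21 CPM with L3mbtl3 and at 1.198, 2.30 and 2.02 CPM with GFP alone (log2 -0.85, SE 0.39, adjusted p = 0.585). Dnah8 had the largest value, -1.27 (SE 0.69, adjusted p = 0.616), and it rests on GFP control 1, at 9.15 CPM beside 1.15 and 3.13 CPM in the others. Dnal1 was at 37.3, 33.7 and 34.3 CPM with L3mbtl3 and at 35.2, 24.2 and 22.6 CPM with GFP alone (log2 0.37, SE 0.17). It was the 1 of 40 members tested that was called, as higher, when GFP control 1 was left out. That fit called 294 of all 14992 genes higher and 121 lower, beside 1 and 1 with every library in. The number of calls over all genes thus depended on GFP control 1. With no filter on low counts 76 members were tested and 0 were called by edgeR, with 5 at an unadjusted p under 0.05. A term for embryo sex leaves only the male library with the L3mbtl3 plasmid to set against the GFP controls, so it is no further check here.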

How the data were processed

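The authors deposited raw counts per gene, 1 table per library, made with featureCounts 2.0.1 on the exons of an Ensembl GRCm38 annotation with reverse strand counting, per the file headers, so antisense reads were not pooled with genes. HISAT2 2.2.1 and SAMtools 1.9 are named in the submitters' processing notes. Libraries were stranded, polyA selected and single-end with 75 bases, per the labels. Exon length per gene is also deposited by the authors as a value in bases, per the file headers, and was used for RPKM. The annotation release and the treatment of multi-mapping reads are not given in the sources used here. Gene IDs were paired with symbols for 97.971% of 46078 genes, and every entry named a gene. For 5 members, exon bases are shared with a gene on the same strand (Cfap299, Cfap43, Dnaaf2, Dnaaf3 and Rsph10b).

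From these, CPM were computed on plain library totals, and edgeR 4.0.16 (R 4.3.3, TMM factors, filterByExpr, robust quasi-likelihood F test, two-sided) was fitted on the libraries of each comparison. Adjustment was by Benjamini-Hochberg over all genes tested, with calls at an adjusted p under 0.05. Standard errors are the log2 fold change over the square root of F. The script was tested on simulated data. Members and lists were chosen with earlier results of these data known. One gene of the lists is not reported here and was left out of its list. Genes were named by rule: Foxj1, up to 12 called members per direction by size of change, the 6 smallest p where fewer than 6 were called, the highest member of each class by RPKM, and up to 4 genes of each list. Members beyond the rule are named to account for the set, after their values were seen. Alternatives were DESeq2 1.42.0, other scalings, no filter, all 11 libraries in 1 fit, each library left out, a replicate block and a term for embryo sex. The comparison of E12.5 tissue with sorted cells shares its libraries with the other 2 comparisons, so no overlap between comparisons is given.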

Additional observations from a re-analysis of the deposited data

How the results depend on the processing

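Over the named genes, 1665 values kept their direction and their side of the threshold, 128 lost the call, 18 gained it and 6 changed sign. The 6 were not called, and the cause was not tested. With each library left out, the gain value of Sox2 ran from -1.11 to 0.049, highest without GFP control 1. At E12.5 Cfap20 ran from -0.062 to 0.026, Cfap36 from -0.069 to 0.024 and Dnal4 from -0.069 to 0.11 (-0.067 with a term for embryo sex), each at its ends without 1 of the libraries labelled knockout. L3mbtl3 in tissue against sorted cells ran from -0.0030 to 0.13, lowest without GFP control 2. At E12.5, 31 members were called lower with either other scaling, 23 by DESeq2 and 1 with all 11 libraries in 1 fit. With 1 control left out, 24 to 28 were called lower. With no filter 36 were called lower (among them Cfap70, Dnah8, Dnali1, Drc1 and Rsph9) and 1 higher, Rsph6a. The sex term and the fit without knockout 2 both leave only knockout 1, so they are not separate checks. Cfap43 and Dnah2 lost the call in all 5 fits without 1 library, and Cfap45, Cfap53, Cfap57, Cfap58, Cfap61, Cfap73 and Rsph10b in some. In the gain comparison 0 to 1 member was called with each library left out, the 1 being Dnal1 without GFP control 1. That fit called 294 of all 14992 genes higher and 121 lower. Scaling by library totals moved the median of all genes in tissue against sorted cells from 0.02 to 0.30 and the members called higher from 55 to 60 (with Cfap20, Cfap97, Cfap298, Dnaaf5 and Tekt1). A term for embryo sex was not run there, since all 6 libraries were male. Whether replicate numbers pair the libraries is not known. In the gain comparison same-numbered pairs correlated at 0.190, 0.0613 and 0.352, and the other pairs at -0.326 to 0.138. At E12.5 same-numbered pairs correlated at -0.0726, -0.0376 and 0.0509. With only 2 libraries labelled knockout those values come in mirrored pairs and cannot settle it. With a replicate block 31 members were called lower at E12.5 (30 of them shared), 0 in the gain comparison, and 56 higher and 4 lower in tissue. Depth limits the 24 members with under 3 counts in every GFP control.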

Other observations

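Lists of other cells in the dissected tissue differed in direction from list to list between the libraries labelled knockout and the E12.5 controls. All 12 neuronal genes were below 0. Above 0 were 14 of 16 cortical hem, 10 of 12 ventral telencephalon and 10 of 13 endothelial genes. Apical progenitor, Cajal-Retzius, microglial and meningeal genes were split more evenly. Of 16 cortical hem genes 3 were called higher and 1 lower by edgeR, the higher ones being Wnt8b (log2 0.61), Rspo2 (0.41) and Id3 (0.39). Gsx2 (log2 1.16), Dlx2 (0.85) and Dlx5 (0.83) were the 3 of 12 ventral telencephalon genes called higher, while Sst was called lower (-2.17). Apical progenitor genes gave 3 lower of 12 (Slc1a3, Fabp7 and Hopx), and neuronal genes 3 lower of 12 (Elavl4, Rbfox3 and Map2). Cajal-Retzius genes gave 1 higher (Ndnf, 0.82) and 1 lower (Nhlh2, -0.29) of 10, and microglial genes 1 higher (Fcrls) and 1 lower (Lyz2) of 14. None of 13 endothelial genes was called by edgeR, with 3 at an unadjusted p under 0.05 and a smallest adjusted p of 0.0563, while DESeq2 called 1 higher, and 1 of 12 meningeal genes was lower (Ogn, -0.43).

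With L3mbtl3 raised in sorted cells, microglial genes summed to 15.3 to 23.0 CPM against 37.7 to 70.1 CPM in the GFP controls and endothelial genes to 6.70 to 11.4 CPM against 16.8 to 24.2 CPM. None of either list was called by edgeR, with 10 of 13 and 5 of 9 at an unadjusted p under 0.05, and DESeq2 called 6 and 1 lower.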
